A study of Mus musculus with 12 samples.

Results

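Sema7a and the class 4 semaphorins Sema4a, Sema4b and Sema4d were followed through the activation of mouse CD8 T cells. These 4 genes were read by 9 of the 45101 probe sets on the array, a probe set being a group of short probes designed against one transcript. The members were all probe sets whose only annotated symbol was one of the 4 genes: 2 for Sema7a, 2 for Sema4a, 2 for Sema4b and 3 for Sema4d. They were 4 of the 18193 genes that had a probe set with a single symbol. Sema7a was selected on these arrays for its large rise on activation, so its activation values are a description and were not tested.

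The CD8 T cells came from spleens of male mice and were purified with an enrichment kit. Control littermates (WT, genotype Cd4-Cre/Scap+/+) had intact Scap, and deficient mice (KO, Cd4-Cre/Scapfl/fl) had floxed Scap. Scap encodes the escort protein that carries SREBP transcription factors to the Golgi. Both genotypes carried the Cre recombinase under the Cd4 promoter, which is active in developing T cells. RNA was extracted from quiescent cells (T0) or from cells stimulated for 6 h (T6) by antibody to CD3 bound to the plate and antibody to CD28 in solution. This gave 4 groups, WT T0, WT T6, KO T0 and KO T6, with 3 arrays labelled as biological replicates in each. The ages of the mice are not given in the sources used here.

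Semaphorins are secreted or membrane-bound proteins that share a sema domain, and most signal through plexin receptors. SEMA7A is held on the cell by a GPI lipid anchor, binds integrin beta-1 and plexin C1, and appears on activated T cells. SEMA4A, SEMA4B and SEMA4D are single-pass membrane proteins; SEMA4A co-stimulates T cells, and SEMA4D (CD100) is abundant on resting T cells, binds plexin B1 and CD72, and can be shed from the surface by proteases.

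The promoters of the 4 genes are shown because the members moved in opposite directions on activation. Each sequence is the 250 bases before a transcription start, 5′ to 3′ along the gene, from RefSeq on build GRCm38.p6. Of the starts listed for a gene in that table, the one farthest upstream was used. The annotated Sema7a and Sema4d genes reach beyond these windows on the upstream side, so both windows lie inside the gene, and whether exons of other transcripts cover them was not analysed here. Capitals mark matches, on either strand, to the GC box bound by SP1-type factors (GGGCGG) or to the core of the NFAT motif (GGAAA). NFAT is a calcium-driven transcription factor of T cell activation.
Sema7a, chr9:57939862-57940111, plus strand: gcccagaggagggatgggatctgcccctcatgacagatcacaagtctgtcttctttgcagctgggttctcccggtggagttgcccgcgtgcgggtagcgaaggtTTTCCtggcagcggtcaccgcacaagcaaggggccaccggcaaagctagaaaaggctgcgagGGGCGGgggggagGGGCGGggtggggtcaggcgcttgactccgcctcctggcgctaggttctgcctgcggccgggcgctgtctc
Sema4a, chr3:88461183-88461432, minus strand: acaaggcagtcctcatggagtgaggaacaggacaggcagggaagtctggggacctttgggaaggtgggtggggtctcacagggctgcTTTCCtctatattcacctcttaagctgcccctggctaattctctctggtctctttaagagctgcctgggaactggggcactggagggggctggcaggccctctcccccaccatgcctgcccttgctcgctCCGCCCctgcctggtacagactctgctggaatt
Sema4b, chr7:80186620-80186869, plus strand: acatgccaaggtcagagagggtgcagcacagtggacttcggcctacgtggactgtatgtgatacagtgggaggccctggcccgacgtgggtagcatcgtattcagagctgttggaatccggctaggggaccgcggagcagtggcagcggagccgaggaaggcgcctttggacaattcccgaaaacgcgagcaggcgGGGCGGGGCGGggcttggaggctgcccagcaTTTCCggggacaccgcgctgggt
Sema4d, chr13:51756684-51756933, minus strand: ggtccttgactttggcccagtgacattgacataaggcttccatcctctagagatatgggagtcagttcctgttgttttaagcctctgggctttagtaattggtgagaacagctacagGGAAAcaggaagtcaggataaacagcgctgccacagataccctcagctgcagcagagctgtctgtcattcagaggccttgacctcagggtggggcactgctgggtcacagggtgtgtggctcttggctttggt

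The Sema7a window held 2 GC boxes and 1 NFAT core, and the Sema4b window held 2 overlapping GC boxes and 1 NFAT core. The Sema4a window held 1 of each, and the Sema4d window held the NFAT core alone. Over all 10 listed promoters of the 4 genes, 7 held a GC box and 8 an NFAT core, against 32.7% and 55.6% of the 32851 mouse promoters of the same length. Those 10 windows are alternative starts of 4 genes and are not independent of each other. An AP-1 motif (TGANTCA) lay in 1 of them, at another Sema4d start, against 6.75% of all promoters. An E-box (CACGTG) lay in 1, at the other Sema4b start, against 6.02%. The EGR motif (GCGNGGGCG, which can overlap a GC box), the sterol regulatory element (TCACNCCAC), the FOXO motif (GTAAACA) and the CRE (TGACGTCA) matched 0 of the 10, against 4.70%, 1.05%, 3.17% and 1.55% of all promoters. Short motifs match often, and a match is not evidence of binding. By composition, 66.4% of the Sema7a window was G or C, above the upper quartile of all promoters, which was 61.2%. The Sema4b window lay above that quartile too, at 64.4%, and the other Sema4b start was at 72.4%. The printed Sema4a and Sema4d windows were at 59.6% and 52.0%.

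The arrays were scaled by the authors to a common mean signal, and their medians lay between 61.3 and 76.2. Percentile 40 of an array, used below as the line for low signals, lay between 33.9 and 42.6. Signals of different probe sets are not compared with each other, because each binds its target with its own strength. T cell identity genes stood high in all groups: the mean of 10 such genes lay between 12.30 and 13.33 on the log2(signal + 16) scale. Of markers of other blood cells, 15 of 16 myeloid and dendritic cell genes and 12 of 12 B cell genes passed the filter on low signals. So did 3 of 5 NK cell, 2 of 3 erythroid, 3 of 4 CD4 T cell, 5 of 5 platelet and 4 of 4 plasma cell genes. Over all genes 13158 of 18193 passed, so passing the filter does not by itself show that a cell type was present. In WT T0 the macrophage genes Csf1r and C1qa had mean log2 levels of 12.46 and 11.02. Cd4, Itgam, Ncr1, Klra8 and Hba-a1 lay below the filter. The Scap probe set used for the gene differed between KO and WT by -0.25 at T0 (adjusted p = 0.593) and by -0.47 at T6 (adjusted p = 0.273) in limma's test, so neither difference was called. Whether it lies inside the deleted part of the gene was not analysed here.

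Sema7a went from a low signal in quiescent cells to a high one after 6 h in both genotypes. In WT its signal was 103, 80 and 65.6 at T0 and 3840, 3112 and 3559 at T6. In KO it was 125, 98.5 and 155 at T0 and 3907, 2369 and 3931 at T6. Every T6 array lay far above every T0 array, and the lowest T6 array was KO replicate 2. The group means were 82.9 ± 18.8 and 3504 ± 367 in WT, and 126 ± 28.4 and 3402 ± 895 in KO (SD, n = 3). The mean signal was thus 42.3-fold higher at T6 in WT and 27.0-fold higher in KO. On the log2(signal + 16) scale, where the added 16 shrinks changes of weak signals, the rise was 5.17 in WT (SE 0.23) and 4.57 in KO (SE 0.23). Ranked by this change among 13158 genes, Sema7a stood at place 3 in WT and at place 5 in KO. The KO arrays were not named in the selection, but the KO value measures the same response and is given as a description too.

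**Figure D1:**
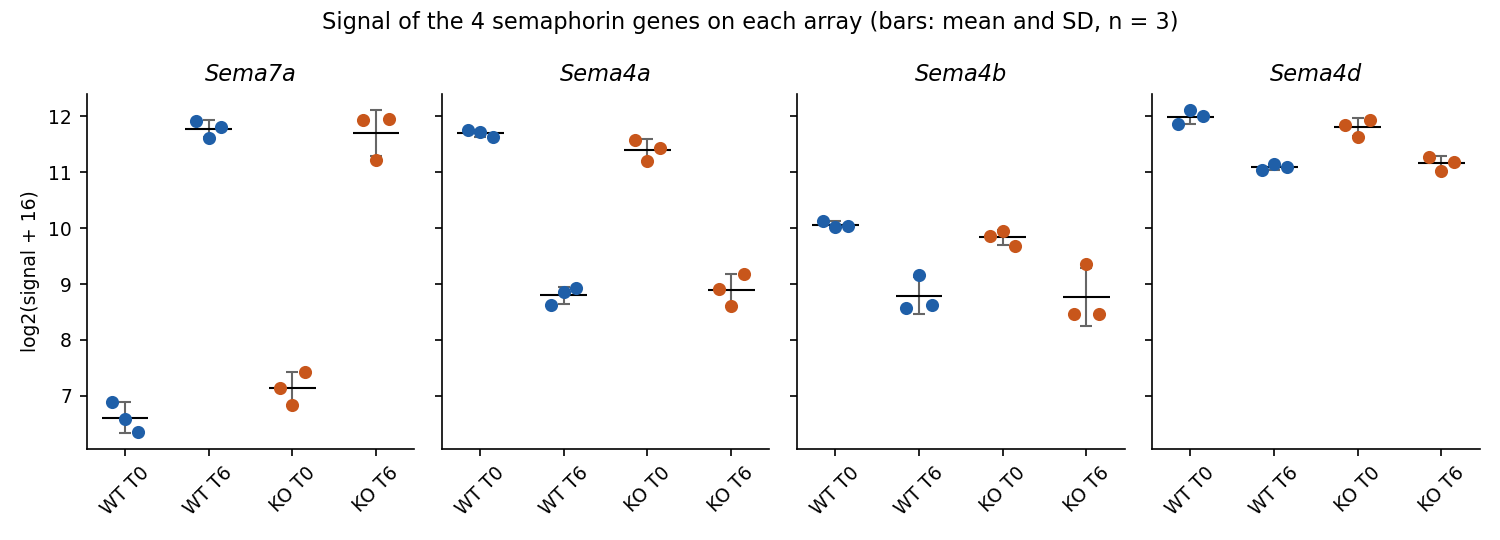
Signal of the probe set used for each of the 4 genes on every array (log2 of signal + 16, vertical axis) in WT T0, WT T6, KO T0 and KO T6; points are arrays, and bars are the mean and SD of 3 arrays. Sema7a rises from group means of 6.61 and 7.13 to 11.78 and 11.70, while Sema4a, Sema4b and Sema4d lie lower at T6 than at T0 in both genotypes; heights are not compared between genes.

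The other Sema7a probe set, 1422040_at, was much dimmer. At T0 it lay between 3.52 and 34.0 and was under percentile 40 on all 6 arrays. At T6 it lay between 79.2 and 179 and was above it on all 6. It was thus higher at T6 on every array, as the other probe set was. Signals under percentile 40 have no dependable size, so its fitted changes of 2.08 in WT and 2.36 in KO are not set against those of the brighter probe set.

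The 3 class 4 members fell on activation in both genotypes. All 3 were called lower in WT and all 3 in KO by limma's test, at a Benjamini-Hochberg adjusted p under 0.05 over 13158 genes. Over all genes tested, 13.8% were called lower and 11.3% higher in WT, and 10.4% were called lower and 10.4% higher in KO. The median change of all genes tested was -0.06 in WT and near 0 in KO. Because RNA came from bulk cells, fewer cells that express a gene and less RNA per cell cannot be told apart. The activation contrasts of WT and KO share no array.

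Sema4a, whose protein co-stimulates T cells, fell the most of the 3. Its signal in WT was 3425, 3360 and 3157 at T0 and 380, 446 and 470 at T6. In KO it was 3043, 2326 and 2745 at T0 and 463, 374 and 562 at T6. Every T6 array lay below every T0 array, and the T6 mean was 13.0% of the T0 mean in WT and 17.2% in KO. The log2 change was -2.90 in WT (SE 0.15, limma adjusted p = 1.9e-06) and -2.51 in KO (SE 0.15, adjusted p = 6.1e-06). Counted from the lowest, these changes stood at places 33 and 45 of 13158. The other Sema4a probe set, 1438934_x_at, changed by -2.16 in WT and -2.19 in KO, both called, with no overlap between T0 and T6 arrays.

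Sema4b fell less. Its signal in WT was 1104, 1018 and 1035 at T0 and 365, 560 and 379 at T6. In KO it was 918, 974 and 806 at T0 and 338, 645 and 338 at T6. T0 and T6 arrays did not overlap, and replicate 2 was the highest T6 array in both genotypes. The log2 change was -1.27 in WT (SE 0.24, limma adjusted p = 0.0038) and -1.07 in KO (SE 0.24, adjusted p = 0.011), with 95% intervals of -1.80 to -0.73 and -1.60 to -0.53. The other probe set, 1427586_at, was dim: it lay between 34.3 and 85.0 at T0 and under percentile 40 on all 6 T6 arrays. Of its KO T0 arrays 1 was above percentile 40. The fit called it lower in both genotypes, but with T6 signals this low the size of the change is not given.

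Sema4d, which encodes the CD100 surface protein, kept most of its signal. In WT the signal was 3711, 4413 and 4106 at T0 and 2097, 2244 and 2161 at T6. In KO it was 3680, 3146 and 3918 at T0 and 2469, 2060 and 2304 at T6. T0 and T6 arrays did not overlap, and the T6 mean was 53.2% of the T0 mean in WT and 63.6% in KO. The log2 change was -0.90 in WT (SE 0.11, limma adjusted p = 0.00037) and -0.65 in KO (SE 0.11, adjusted p = 0.0029). The KO call was lost when the gene was taken as the mean of its probe sets (-0.45, adjusted p = 0.122).

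The other 2 Sema4d probe sets were dim. Probe set 1420823_at changed by -1.93 in WT (called) and by -0.52 in KO (limma adjusted p = 0.401), with all 3 WT T6 arrays under percentile 40. Its WT signals were 130, 113 and 122 at T0 and 29.7, 15.3 and 16.7 at T6. Its KO signals were 25.4, 51.0 and 111 at T0 and 52.5, 15.6 and 38.9 at T6, so the KO states overlapped and KO T0 was spread widely. The difference between its changes was 1.41 (SE 0.54) and was not called (adjusted p = 0.928). Probe set 1434596_at changed by -0.47 in WT and -0.19 in KO and was called in neither, and its T0 and T6 arrays overlapped in both genotypes. Of the 7 class 4 probe sets, 6 were called lower in WT and 5 in KO, against 11.4% and 10.2% of the 30083 probe sets tested. Probe sets of one gene share its transcript and are not replicates.

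**Figure D2:**
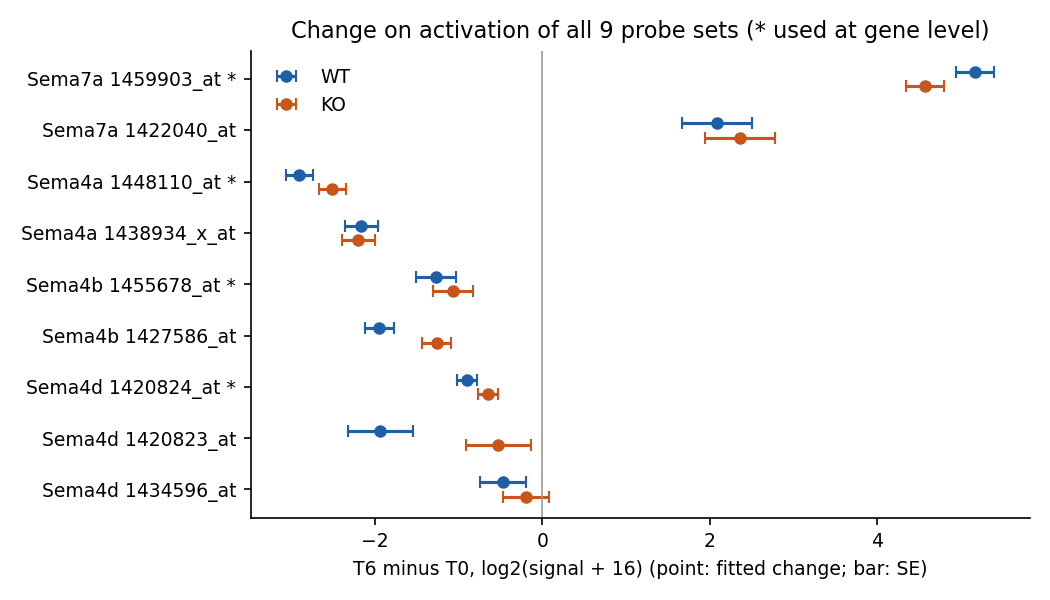
Change from T0 to T6 (log2 of signal + 16, horizontal axis) of each of the 9 probe sets in WT and KO, with the SE of the limma fit over all probe sets as bars. The 2 Sema7a probe sets lie at 2.08 to 5.17, and the 7 class 4 probe sets lie between -2.90 and -0.19; for 1422040_at, 1427586_at and 1420823_at, sizes rest in part on signals under percentile 40.

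None of the 4 genes was called different between KO and WT at T0 or at T6. Over all genes, 0.038% were called at T0 and 0.0988% at T6. The same arrays enter these differences and the activation changes above. Sema7a was 0.52 higher in KO at T0 on the log2 scale (95% interval 0.02 to 1.03, limma adjusted p = 0.508). The groups overlapped, since KO replicate 2 lay below WT replicate 1. The dimmer probe set gave no usable difference, with all 6 T0 arrays under percentile 40. At T6 Sema7a differed by -0.07 (interval -0.58 to 0.43, adjusted p = 0.923).

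With the probe set used for each gene, the class 4 members had lower means in KO at T0, and none was called. For Sema4a the difference was -0.30 (interval -0.64 to 0.05, limma adjusted p = 0.569). For Sema4b it was -0.23 (interval -0.76 to 0.31, adjusted p = 0.774). For Sema4d it was -0.19 (interval -0.44 to 0.06, adjusted p = 0.610), and the groups overlapped. The KO and WT arrays of Sema4a and of Sema4b did not overlap at T0. How often that holds over all genes was not counted. At T6 the differences were 0.09 for Sema4a (interval -0.25 to 0.44), -0.02 for Sema4b (interval -0.56 to 0.51) and 0.07 for Sema4d (interval -0.18 to 0.32). All 3 had overlapping groups at T6, and the lowest limma adjusted p among them was 0.839. Of their other probe sets, 1438934_x_at of Sema4a (-0.18) and the dim 1427586_at and 1420823_at were lower in KO at T0. Probe set 1434596_at of Sema4d was 0.05 higher. At T6 1438934_x_at differed by -0.22, the other sign from the Sema4a probe set used. None of these probe sets was called between genotypes.

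The test of whether KO and WT changed by different amounts on activation called 0 of 13158 genes in limma (0%), while 604 had an unadjusted p under 0.05. The fit over all probe sets called 1. For Sema7a the KO change minus the WT change was -0.60 (interval -1.31 to 0.12), and this value shares arrays with the rise that selected the gene. For Sema4a the difference was 0.39 (interval -0.09 to 0.88), for Sema4b 0.20 (interval -0.55 to 0.96) and for Sema4d 0.26 (interval -0.10 to 0.61). The limma adjusted p was 0.9997 for each of the 4 genes. All 4 intervals include 0.

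**Figure D3:**
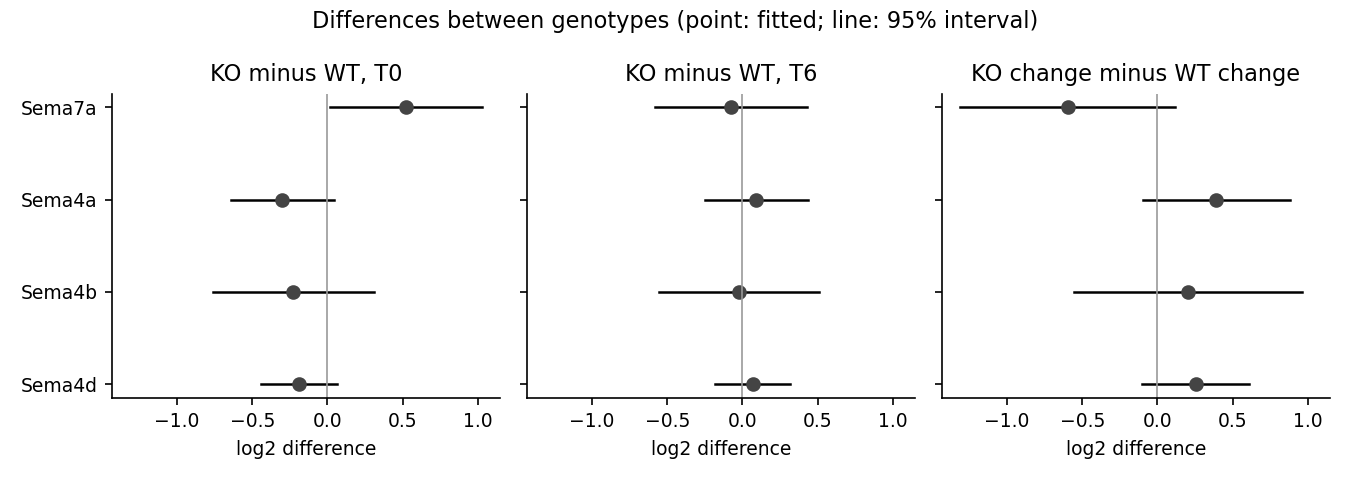
Differences KO minus WT at T0 and at T6, and the KO change minus the WT change, for the 4 genes (log2 of signal + 16, horizontal axis); points are estimates and lines are 95% intervals of the limma fit. The interval of Sema7a at T0, 0.02 to 1.03, is the only one of the 12 that leaves out 0, and its adjusted p was 0.508.

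Among the marker lists of other cell types, the myeloid and dendritic cell genes fell on activation as the class 4 members did. The mean log2 level of 15 myeloid and dendritic cell genes lay between 9.03 and 9.52 in WT T0, 6.50 and 7.05 in WT T6, 9.66 and 10.001 in KO T0, and 7.42 and 7.84 in KO T6. Of these genes, 12 were called lower on activation in WT and 11 in KO, against 13.8% and 10.4% of all genes tested. The mean of 12 B cell genes lay between 7.40 and 8.30 in WT T0, 6.74 and 7.66 in WT T6, 8.11 and 9.77 in KO T0, and 7.90 and 9.11 in KO T6. Of these, 3 were called lower on activation in WT and 0 in KO, beside the same shares of all genes. Myeloid and B cells also carry class 4 semaphorins, and the part of these cells in the falls of Sema4a, Sema4b and Sema4d was not tested. At T0 all 12 B cell genes and 14 of 15 myeloid genes had higher means in KO, and 0 of either list was called. At T6 all 12 and all 15 had higher means in KO, and 1 myeloid gene, Tyrobp, was called (1.68, limma adjusted p = 0.048). All 10 T cell identity genes had lower means in KO, with median differences of -0.23 at T0 and -0.30 at T6, and 0 was called. The part of these marker differences in the values of the 4 semaphorin genes was not tested. The mean of 3 NK cell genes stayed between 8.74 and 9.30 over all groups, and that of 4 plasma cell genes between 9.15 and 10.58. The NK cell mean covers changes in opposite directions. In KO Klre1 changed by -1.14 and Eomes by 0.53, both called in limma, and Klrk1 by -0.22, not called.

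Erythroid genes differed between genotypes and between arrays. The mean of the 2 tested lay between 6.66 and 8.90 in WT T0, 8.03 and 8.59 in WT T6, 9.01 and 12.46 in KO T0, and 8.79 and 12.92 in KO T6. The highest arrays were KO T0 replicate 2 and KO T6 replicate 2. Without both of these arrays the KO change was 4.66 for Sema7a, -2.47 for Sema4a, -1.31 for Sema4b and -0.67 for Sema4d, and the limma calls of the 3 class 4 genes were kept.

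The genes whose profile over the 12 arrays was most like that of Sema7a were genes of early T cell activation. Likeness was the root mean square difference of log2 values after each gene was centred on its own mean. The nearest were Xcl1 at 0.20, Nr4a3 at 0.27, Ccl1 at 0.35, Rgs16 at 0.35 and Ccl4 at 0.39. Xcl1, Ccl1 and Ccl4 encode chemokines, Nr4a3 an orphan nuclear receptor induced by the T cell receptor, and Rgs16 a regulator of G protein signalling. Next came Tnf at 0.40, Irf4 at 0.42, Il2ra at 0.43, Il2 at 0.47 and Fosl1 at 0.50, which encode a cytokine, a transcription factor, the interleukin 2 receptor alpha chain, its ligand and an AP-1 subunit. Xcl1 rose by 4.97 in WT and 4.56 in KO, beside 5.17 and 4.57 for Sema7a. These genes were picked for their likeness, so their changes are a description.

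**Figure D4:**
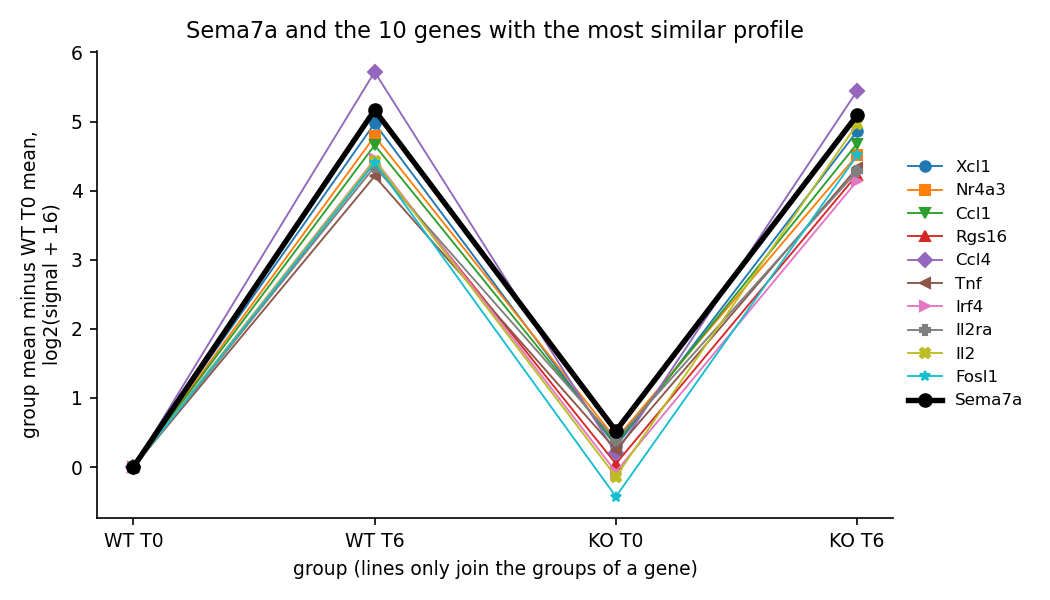
Log2(signal + 16) of Sema7a and of the 10 genes most like it, drawn as each group's mean minus the gene's WT T0 mean (vertical axis) for the 4 groups (horizontal axis). Root mean square differences from Sema7a run from 0.20 for Xcl1 to 0.50 for Fosl1.

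The class 4 members had other nearest genes. Sema4a was most like Ccr3, a chemokine receptor, at 0.27, followed by Ntrk3, Pglyrp2, Ramp1 and Dusp1, the last a MAP kinase phosphatase, at 0.32. Sema4b was most like Pip4p2 at 0.14, followed by Golm1, Scd2, Grhpr and Adgrd1. Scd2, a stearoyl-CoA desaturase, changed by -1.57 in WT and -1.11 in KO. Sema4d was most like Vasp at 0.09, which encodes an actin filament protein, followed by Smarca2, Fgd3, Lrrfip1 and Col23a1. A gene with small changes has small distances, so these values are not compared between members.

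Of the 16 other semaphorin genes, 6 passed the filter on low signals and 10 did not. In WT 1 of the 6 was called higher and 2 lower, beside 11.3% and 13.8% of all genes. In KO 2 of the 6 were called lower, beside 10.4% of all genes. Sema6d, a membrane semaphorin that binds plexin A1, fell on the log2 scale, with changes of -2.69 in WT and -2.24 in KO. With the mean of its probe sets the changes were -0.72 and -0.84, both still called. Sema4c rose by 1.47 in WT, from a low mean of 5.38 to 6.85; in KO the means were 5.74 and 6.78 and the change of 1.04 was not called. With log2(signal + 64) the WT rise was 0.84. Sema4f fell, with changes of -0.82 in WT and -0.92 in KO. Among arrays left out in turn, the KO call was lost without replicate 3 of KO T0, or without replicate 1 or 2 of KO T6. The WT call was lost without replicate 1 or 3 of WT T0, or without replicate 1 or 3 of WT T6. The median change of the 6 genes was -0.51 in WT and -0.20 in KO, beside -0.06 and near 0 over all genes. Among them Sema6d had the smallest p between genotypes at T6, with a difference of 1.04 (limma adjusted p = 0.162).

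Of the 15 receptor genes, 13 passed the filter. In WT 2 of the 13 were called higher and 5 lower, beside 11.3% and 13.8% of all genes. In KO 1 was called higher and 3 lower, beside 10.4% and 10.4% of all genes. Cd72, which encodes a SEMA4D receptor best known from B cells, fell with changes of -2.45 in WT (limma adjusted p = 2.0e-05) and -2.19 in KO (adjusted p = 5.0e-05). B cell marker levels are given above, and their part in the fall of Cd72 was not tested. Plxnb2, which encodes a receptor of class 4 semaphorins, fell with changes of -2.04 in WT and -2.30 in KO, to low means of 4.97 and 5.30. With log2(signal + 64) the changes were -1.16 and -1.43, both still called. Nrp1, a co-receptor, rose by 0.69 in WT and by 0.99 in KO. Plxna3 fell by 0.82 in WT, while its KO change was 0.00 after rounding; the difference of 0.83 was not called (adjusted p = 0.9997).

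The genes of the SEMA7A receptors had small changes. Plxnc1, which encodes plexin C1, fell by 0.53 in WT, a call lost with the mean of its probe sets (adjusted p = 0.181) and without replicate 1 or 3 of WT T0 or replicate 1 or 3 of WT T6. Itgb1, integrin beta-1, had a change of -0.26 in WT (limma adjusted p = 0.163) and -0.13 in KO (adjusted p = 0.525). Plxnb1, the plexin of SEMA4D, rose by 1.16 in WT, from 6.04 to 7.20, a call kept in 9 of 22 alternatives and lost, among others, without any 1 WT T6 array. The rise was 0.75 with log2(signal + 64) and 0.52 with the mean of its probe sets. Its KO means were 7.11 and 7.07. Nrp2 fell with its brightest probe set (-0.97 in WT and -0.85 in KO), but its change was 0.65 and 0.76 with the mean of its probe sets, where neither was called. The median change of the 13 receptors was -0.26 in WT and -0.13 in KO.

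**Figure D5:**
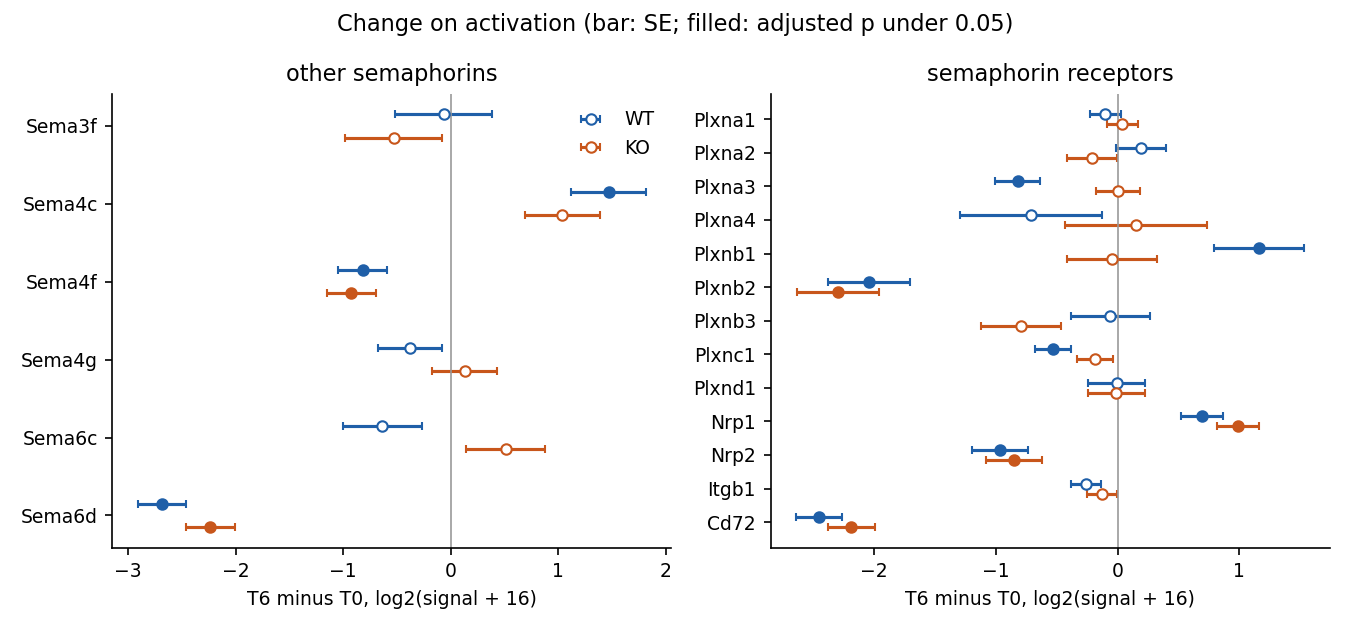
Change from T0 to T6 (log2 of signal + 16, horizontal axis) of the 6 other semaphorin genes and the 13 receptor genes tested, in WT and KO; bars are the SE of the limma fit and filled points had an adjusted p under 0.05. Sema6d at -2.69 and -2.24, Cd72 at -2.45 and -2.19 and Plxnb2 at -2.04 and -2.30 lie farthest to the left; Sema6d moved to -0.72 and -0.84 and Nrp2 turned to 0.65 and 0.76 with the mean of its probe sets.

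Of 37 genes that act after plexins and integrins in the cell, 31 were tested. In WT 8 of the 31 were called lower and in KO 3, beside 13.8% and 10.4% of all genes, so the KO share was near that of all genes. None of the 31 was called higher in limma, against 11.3% of all genes in WT and 10.4% in KO. Mical1, an oxidase that takes actin filaments apart, fell, with changes of -1.02 in WT and -0.86 in KO. Limk2, a kinase that inactivates cofilin, fell with its brightest probe set (-0.55 in WT and -0.42 in KO), but not with the mean of its probe sets (-0.09 and -0.06, not called). The others called in WT were Fes at -1.28, Crmp1 at -0.91, Mical3 at -0.69, Cdk5 at -0.56, Limk1 at -0.43 and 1 more gene. In that order the named calls held in 16 of 21, 14 of 21, 14 of 22, 18 of 22 and 14 of 22 alternatives. The Limk1 call was lost with the mean of its probe sets (limma adjusted p = 0.236). The third called in KO was Rnd3 at -1.65, a call lost without any 1 KO T0 array or without replicate 2 or 3 of KO T6. With log2(signal + 64) the changes were -0.81 for Fes, -0.60 for Crmp1 and -0.98 for Rnd3. Leaving out replicate 1 or 3 of WT T0, or replicate 3 of WT T6, gave 5 calls in place of 8. Leaving out replicate 2 of WT T6 gave 4, and leaving out replicate 1 of WT T6 gave 3. The median change was -0.24 in WT and -0.14 in KO.

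SEMA7A needs a GPI anchor to reach the surface. Of 27 genes of GPI anchor synthesis and attachment 25 were tested: 2 were called higher and 4 lower in WT, and 2 lower in KO. The shares over all genes were 11.3% higher and 13.8% lower in WT, and 10.4% lower in KO. In WT the list stood near these shares. Pigm, a mannosyltransferase of the pathway, rose by 0.71 in WT, and Pigc, of the first step, rose by 0.31. The Pigm call was kept in 22 of 22 alternatives and the Pigc call in 17 of 22. With the mean of its probe sets Pigc was not called (limma adjusted p = 0.230). Pgap3 had a change of -0.65 and Pigp of -0.38 in WT, both called. The Pgap3 call was kept in 21 of 21 alternatives. The Pigp call was kept in 7 of 22 and lost, among others, with no filter and with median centring. Pigl, a deacetylase of the pathway's early steps, had changes of -0.62 in WT and -0.44 in KO. Pgap1, which remodels the anchor, had changes of -0.77 and -0.75, and all 4 falls were called. The 4 falls of Pigl and Pgap1 were not called with the mean of each gene's probe sets. The median change was -0.01 in WT and 0.03 in KO.

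Of 12 genes of surface proteases and their inhibitors, which govern the shedding of proteins such as SEMA4D, 11 were tested. In WT 1 was called higher and 2 lower, beside 11.3% and 13.8% of all genes. In KO 2 were called lower, beside 10.4% of all genes. Adam19, a membrane metalloprotease, fell, with changes of -1.91 in WT and -1.87 in KO. Timp2, a metalloprotease inhibitor, fell too, by the fit's values of -1.40 and -1.49. Adam10, which encodes a broad sheddase, rose by 0.36 in WT, a call kept in 12 of 22 alternatives, with 0.11 from the mean of its probe sets. No gene of these lists was called in KO against WT at T0 or T6, or in the difference between the changes.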

How the data were processed

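Per the labels, RNA of 12 samples was hybridised to Affymetrix mouse arrays, 1 array a sample. The deposited values are intensities, made by the authors with GCOS per the submitters' processing notes and scaled per array (mean between percentiles 2 and 98 of 500.003). The summarisation settings and the probes' genome build are not given in the sources used here. For arrays, their number limits the precision.

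Values were taken as log2(signal + 16). A gene was its single-symbol probe set of highest mean, tested if above percentile 40 on at least 3 of 12 arrays, which left 13158 genes. limma 3.58.1 in R 4.3.3 (lmFit, eBayes, two-sided) was fitted with 4 group coefficients over 12 arrays and 5 contrasts, and a second time over 30083 probe sets. The call threshold was 0.05 on p adjusted by Benjamini-Hochberg. SE and intervals come from these fits, which were tested on simulated data. The p-values measure the spread between samples labelled biological replicates.

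The members and gene lists were chosen with earlier results of these data known. The rule was to name all members and the 10 or 5 likest genes. From each list and contrast it took up to 6 called genes by smallest p, or the 2 of smallest p where none was called. The text does not follow the rule throughout. Itgb1 was named as the gene of a SEMA7A receptor, and some genes of contrasts without a call were left out. Lists used updated RefSeq symbols. Replicate numbers were not taken to pair T0 and T6 arrays. Alternatives varied the added constant, filter, normalization, probe set rule, fit, replicate block and arrays left out.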

Additional observations from a re-analysis of the deposited data

How the results depend on the processing

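For the 4 members, up to 23 alternatives were run for each of 5 contrasts, including leaving out each array in turn. The tested results kept their side of the threshold in all of them, except the Sema4d fall in KO, which was -0.45 when probe sets of a gene were averaged (adjusted p = 0.122). The Sema4b fall in KO came nearest to being lost, at an adjusted p of 0.049. The rise of Sema7a was 4.60 in WT and 4.16 in KO with log2(signal + 64), and 3.62 and 3.46 with the mean of its probe sets, since the added constant and the dim probe set both shrink it. Counts over all genes moved more. For KO against WT at T0 (5 genes) the count was 8 with a filter at percentile 60, 8 without both KO replicate 2 arrays, 3 with log2(signal + 1), 10 with log2(signal + 64), 3 with the mean of probe sets, 2 with no filter, 1 in a separate fit of the 2 groups and 2 to 9 with 1 array left out. For KO against WT at T6 (13 genes) it was 141 with all probe sets in 1 fit, 33 with a filter at percentile 60, 6 with log2(signal + 1), 1 with the mean of probe sets, 5 with no filter, 8 with quantile normalization and 2 to 16 with 1 array left out, the lowest without WT T6 replicate 3. In a separate limma fit of the 2 groups it was 0, with 1345 genes at an unadjusted p under 0.05. With the replicate block the count at T6 was 24 in place of 13, and the block moved no call of the members. Deviations from group means correlated between same-numbered T0 and T6 arrays at 0.179, 0.464 and 0.380 in KO, where every array correlated best with its own number. In WT they correlated at 0.225, -0.056 and -0.115, with 0.198 for T0 replicate 2 with T6 replicate 3 and 0.232 for T0 replicate 3 with T6 replicate 2. The numbers were not used as pairs, because the design text does not tie them to mice across T0 and T6. Whether arrays share a mouse cannot be told from these correlations. All probe sets in 1 fit gave 6208 calls in place of 3302 on activation in WT, 5578 in place of 2746 in KO and 1 in place of 0 for the interaction, which was 0 to 1 with 1 array left out. Median centring turned the split of WT activation calls from 1492 higher and 1810 lower to 1907 and 1141, and moved the median of all genes from -0.06 to 0.05. The cause of these shifts was not tested. Signals under percentile 40 limit what the dimmer probe sets can show.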

Other observations

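Like SEMA7A, several lymphocyte surface proteins are held by a GPI anchor. Of 19 such genes 14 were tested, and 1 was called higher and 5 lower in WT, and 1 higher and 5 lower in KO. The shares called over all genes were 11.3% higher and 13.8% lower in WT, and 10.4% higher and 10.4% lower in KO. The other 8 of the 14 passed the test in neither genotype. Thy1, the Thy-1 antigen of mouse T cells, fell (-1.33 in WT and -1.30 in KO). Cd48, a ligand of CD2 and 2B4, fell (-1.02 and -1.18), and Cd52 fell (-1.06 and -1.14). Izumo1r, which encodes folate receptor 4, fell (-1.32 and -1.42). Cd55, a brake on complement, fell by 0.74 in WT, a call lost without WT T0 replicate 1 or 2 or WT T6 replicate 1 or 2, and by 0.82 in KO, a call lost without KO T0 replicate 2 or 3 or KO T6 replicate 1 or 3. Cd160, a receptor of cytotoxic lymphocytes, rose by 2.42 in WT and by 1.90 in KO. The median change over the 14 was -0.17 in WT and -0.19 in KO. Thy1 is also among the T cell identity genes and Ly6d among the B cell genes used as markers. None of the 14 was called between genotypes. The nearest was Ly6d at T6, with a difference of 1.93 (limma adjusted p = 0.189).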
